A study of Mus musculus with 11 samples.

Results

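The genes described here are 7 genes of major histocompatibility complex (MHC) class II antigen presentation, H2-Aa, H2-Ab1, H2-Eb1, Cd74, Ciita, H2-DMa and H2-DMb1. They were chosen by name from the 32285 genes counted in the series. The rule used no measured value, but earlier results of these data were known when the choice was made. Single-cell RNA sequencing of mouse brain was performed in 11 libraries of 1 mouse each, and all 7 genes were measured in every library. The groups were wild-type mice after a sham operation (sham + WT, n = 3), Lrg1 knockout mice after a sham operation (sham + Lrg1-/-, n = 3), wild-type mice after middle cerebral artery occlusion with reperfusion (MCAO/R + WT, n = 2) and knockout mice after the same injury (MCAO/R + Lrg1-/-, n = 3). Lrg1 encodes leucine-rich alpha-2-glycoprotein 1, a secreted glycoprotein. The occlusion lasted 1 h, and the study's text does not tie a single reperfusion time to the sequenced mice. The wild-type mice were C57BL/6 males of 8 to 10 weeks. The knockout is a germline deletion carried by every cell type, backcrossed for 4 generations to C57BL/6N, in mice of 3 months. Age, and the substrain to the extent that the backcross left one, therefore moved with genotype, and their part cannot be told apart from that of Lrg1. Brain tissue of the right side was dissociated and red blood cells were lysed before capture.

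MHC class II molecules carry peptides from engulfed proteins to the cell surface, where CD4+ T cells read them. An alpha chain and a beta chain assemble in the endoplasmic reticulum around the invariant chain, which blocks the groove and steers the complex to endosomes. There proteases trim the invariant chain, and the H2-DM heterodimer exchanges its last fragment for peptide. Dendritic cells and B cells hold the machinery constitutively, whereas macrophages and microglial cells acquire it mainly under interferon gamma, through the transactivator encoded by Ciita. In the brain, class II is best known from cells at the borders, in the meninges, the choroid plexus and the perivascular spaces.

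Among the 7 genes, H2-Aa encodes the alpha chain and H2-Ab1 the beta chain of the I-A molecule. H2-Eb1 encodes the beta chain of I-E, a molecule that C57BL/6 mice do not display because they lack its alpha chain. Cd74 encodes the invariant chain, Ciita the class II transactivator, and H2-DMa and H2-DMb1 the chains of H2-DM. In the GRCm38 build, H2-Ab1 (17:34257689-34269419, plus strand), H2-Aa (17:34282744-34287823, minus strand) and H2-Eb1 (17:34305867-34316674, plus strand) lie side by side on chromosome 17. H2-DMa (17:34119541-34139101) and H2-DMb1 (17:34153072-34160230) lie nearby, both on the plus strand. Ciita lies at 16:10480059-10528418, on the plus strand. Lrg1, the deleted gene, also lies on chromosome 17, at 17:56119678-56122001 on the minus strand. Whether the genotypes differ in substrain sequence along that chromosome was not tested. H2-DMb1 has a close neighbor copy, H2-DMb2, which shared 209 of the 1315 windows of 90 bases in the H2-DMb1 transcript, or 15.9%. Reads within shared windows could therefore be lost or given to the wrong copy, and the share of windows is not a share of reads. The annotated span of H2-DMa overlaps another gene on the same strand.

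The promoters of class II genes share short boxes, the X box bound by the RFX complex and the Y box bound by NF-Y, on which the Ciita product assembles. The stretches just upstream of H2-Aa and H2-Eb1 are shown because these genes rose and fell together below. They run from 110 bases before the RefSeq start to the base before it (RefSeq, GRCm38.p6), 5′ to 3′ on the strand of the gene, and capitals mark the searched letters ATTGG of the Y box and AGCAAC of the X box core. H2-Aa is at chr17:34287824-34287933 on the minus strand and H2-Eb1 at chr17:34305757-34305866 on the plus strand.
H2-Aa: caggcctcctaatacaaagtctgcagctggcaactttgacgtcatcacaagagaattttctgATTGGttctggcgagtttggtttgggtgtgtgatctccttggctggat
H2-Eb1: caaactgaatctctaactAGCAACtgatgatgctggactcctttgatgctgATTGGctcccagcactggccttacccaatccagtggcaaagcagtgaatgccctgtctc
ATTGG began 48 bases before the start of H2-Aa and 59 bases before that of H2-Eb1, and AGCAAC began 92 bases before the start of H2-Eb1. A second ATTGG, on the reverse strand of the H2-Eb1 promoter, is left in lower case. AGCAAC was not found in the 300-base H2-Aa promoter, which says only that these letters are not in that window. Both motifs were searched on both strands and do not overlap. ATTGG was present in 12289 of 32851 mouse promoters of the same 300 bases (37.4%), AGCAAC in 4858 (14.8%) and both in 1918 (5.84%). Promoter entries were matched for 4 of the 7 genes. The H2-DMb1 promoter, not shown, held ATTGG 61 bases before the start and no AGCAAC. H2-DMa had 2 entries, 1 with neither motif and 1 with ATTGG 198 bases before the start and no AGCAAC.

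The libraries held 37159497 to 171813031 unique molecular identifiers (UMIs, each one captured RNA molecule). After quality filtering and doublet removal, 125567 cells were kept of 155804 barcodes, and 99302 of them could be named as 1 of 20 cell types by markers, with none of the 7 genes or their paralogues used in the clustering. The other 26265 cells (20.9%) stayed unnamed, and 15806 of these came from 1 library, MCAO/R + Lrg1-/- replicate 5. Between 14 and 180 barcodes were shared by any pair of libraries. Lrg1 was checked in endothelial cells, which held 943 Lrg1 UMIs for sham + WT, 27812 for MCAO/R + WT and 0 in both knockout groups, so the genotypes matched the labels. The knockout libraries also differed from the wild-type libraries in RNA of other cell types: in border-associated macrophages, the summed level of the choroid plexus markers was 403 to 1529 UMIs per 1000000 in sham + WT and 9676 to 33170 in sham + Lrg1-/-. The cell numbers differed as well. Choroid plexus epithelial cells numbered 524 in sham + WT, 4634 in sham + Lrg1-/-, 131 in MCAO/R + WT and 4211 in MCAO/R + Lrg1-/-. Red blood cells numbered 7, 414, 13 and 3910 in the same order of groups.

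To learn which brain cells carried the class II machinery, UMIs were summed per library and cell type and expressed per 1000000 UMIs of that cell type in that library (CPM). Dendritic cells, B cells, monocytes and monocyte-derived macrophages, and border-associated macrophages made up 3.29% of kept cells and held 68.3% of the 194605 UMIs of the chain genes H2-Aa, H2-Ab1 and H2-Eb1. The share of these 4 cell types ranged from 40.8% to 81.5% over the 11 libraries. Dendritic cells were only 206 cells (0.164%), yet they held 26.6% of chain UMIs. These shares are pooled, and MCAO/R + Lrg1-/- replicate 2 alone gave 66819 of the UMIs. Within single libraries, dendritic cells held 8.47% to 42.7%. Monocytes and monocyte-derived macrophages held 27.2% of the pooled UMIs (6.18% to 38.0% within libraries), border-associated macrophages 7.75% and B cells 6.68%. Microglial cells, 26.3% of kept cells, held 5.37%, and the unnamed cells held 12.5%.

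**Figure D1:**
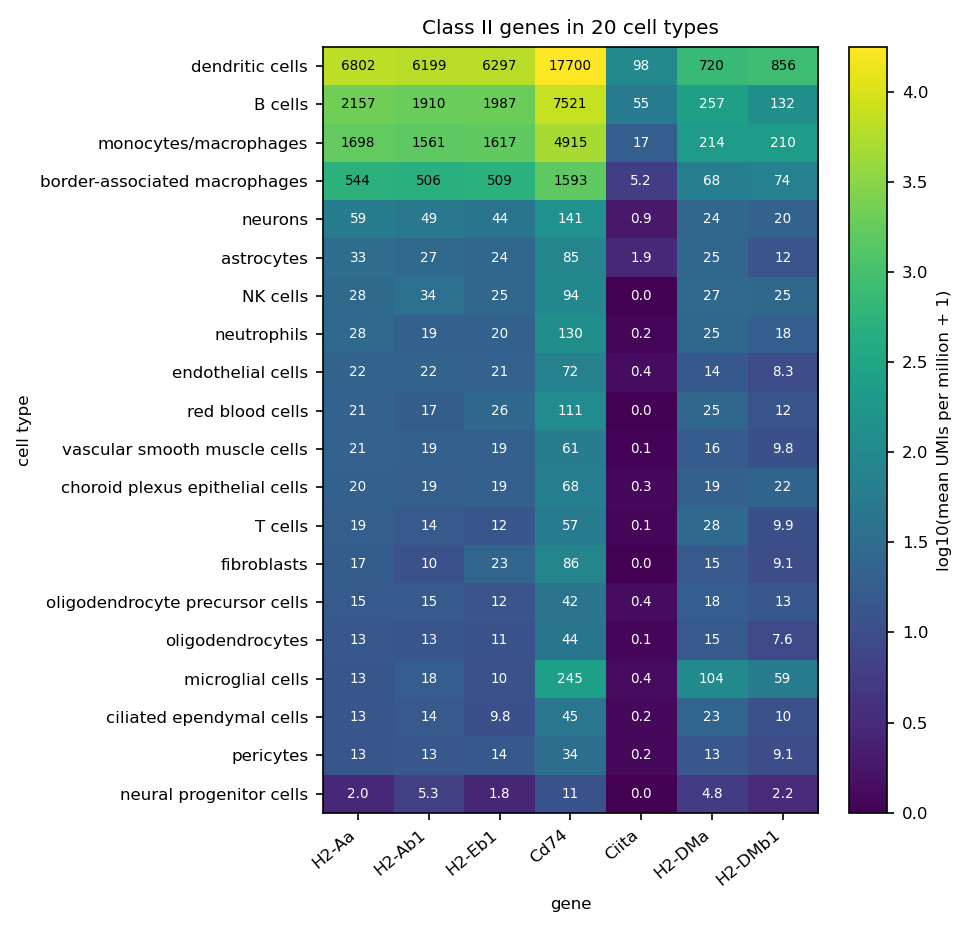
Mean level of each class II gene (columns) in each of 20 cell types (rows), in UMIs per 1000000 UMIs of the cell type, averaged over the libraries with at least 3 such cells; color gives log10 of the mean plus 1. Dendritic cells lead every column, with 6802 for H2-Aa and 17700 for Cd74, and microglial cells stand out from the low rows for Cd74, H2-DMa and H2-DMb1 and not for the chain genes.

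For H2-Aa, the mean level over 11 libraries was 6802 ± 1663 CPM (SD) in dendritic cells, 2157 ± 550.1 in B cells, 1698 ± 949.9 in monocytes and monocyte-derived macrophages and 543.8 ± 650.0 in border-associated macrophages. The remaining cell types averaged 1.97 to 59.5 CPM, and microglial cells lay among them at 12.9 ± 10.6. Cd74 followed the same order of these cell types, with 17700 ± 4397 CPM in dendritic cells, 7521 ± 2316 in B cells, 4915 ± 2567 in monocytes, 1593 ± 1629 in border-associated macrophages and 244.9 ± 127.1 in microglial cells. Ciita was scarce everywhere, at 98.3 ± 35.2 CPM in dendritic cells, 54.6 ± 27.7 in B cells, 17.3 ± 14.3 in monocytes and 5.21 ± 6.15 in border-associated macrophages. The H2-DM genes reached 720.1 ± 170.1 (H2-DMa) and 855.5 ± 278.7 CPM (H2-DMb1) in dendritic cells. These libraries capture the 3′ end of transcripts, so levels are not corrected for length. Levels are compared for 1 gene between cell types, and ratios of genes only as they change between cell types or groups.

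Neighbors in this order were compared within libraries by an exact two-sided sign-flip permutation test on log2(CPM + 1), n = 11, with Benjamini-Hochberg adjustment over 35 comparisons. Dendritic cells exceeded B cells for all 7 genes (H2-Aa by 1.66 ± 0.28 SD on the log2 scale, in 11 of 11 libraries, exact adjusted p = 0.00311). B cells and monocytes did not differ beyond their spread for H2-Aa (difference 0.57 ± 0.93, exact adjusted p = 0.0866), H2-Ab1 (0.134), H2-Eb1 (0.0849), H2-DMa (0.26) or H2-DMb1 (0.072), whereas Cd74 (exact adjusted p = 0.00651) and Ciita (0.00311) were higher in B cells. Monocytes exceeded border-associated macrophages for all 7 genes, with exact adjusted p from 0.00488 to 0.0124. Border-associated macrophages exceeded microglial cells for H2-Aa by 4.56 ± 1.69 on the log2 scale (exact adjusted p = 0.00311), and also for H2-Ab1, H2-Eb1, Cd74 and Ciita. Cd74 was higher in 9 of 11 libraries and lower in both MCAO/R + WT libraries, at 132.2 and 159.4 CPM against 285.1 and 246.1 in microglial cells. The H2-DM genes broke from this order. H2-DMa was lower in border-associated macrophages than in microglial cells by 0.84 ± 0.86 SD on the log2 scale (difference -0.84, exact adjusted p = 0.015, lower in all but 2 libraries), and H2-DMb1 showed no detectable difference (-0.02 ± 1.06, exact adjusted p = 0.944).

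Oligodendrocytes, a cell type not known for constitutive class II, served as the comparison cell type in each library. Microglial cells did not exceed oligodendrocytes detectably for H2-Aa (difference 0.28 ± 0.82, exact adjusted p = 0.312), H2-Eb1 (0.38) or Ciita (0.0532). They exceeded oligodendrocytes for H2-Ab1 (difference 0.95 ± 0.96, exact adjusted p = 0.0171), and by a wide margin for Cd74 (2.79 ± 1.68), H2-DMa (2.79 ± 0.55) and H2-DMb1 (3.09 ± 0.83), with exact adjusted p from 0.00311 to 0.00488. Over the libraries of both genotypes, microglial cells thus held more invariant chain and H2-DM RNA than oligodendrocytes, without a detectable excess of H2-Aa and H2-Eb1 RNA. In sham + WT alone, H2-Aa was at 4.64 to 4.83 CPM in microglial cells and 3.21 to 4.01 in oligodendrocytes. H2-Eb1 was at 4.16 to 5.375 and 3.16 to 3.99 CPM there, whereas the ranges overlapped in both knockout groups. How much of the oligodendrocyte level is background was not tested.

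The balance between the genes differed between cell types in the same way. In dendritic cells, 2.02 to 3.48 Cd74 UMIs were counted per H2-Aa UMI over the 11 libraries, in B cells 2.74 to 3.94 and in monocytes 2.46 to 3.54. In microglial cells of the sham + WT group the ratio was 90.1, 97.3 and 81.3. It was 7.94, 7.20 and 6.09 for sham + Lrg1-/- mice, 39.3 and 178 for MCAO/R + WT mice, and 11.0, 6.05 and 12.7 for MCAO/R + Lrg1-/- mice. The microglial ratio was therefore far above that of the professional presenting cells in wild-type libraries and closer to it in all 6 knockout libraries. The share of H2-Ab1 in the summed H2-Aa and H2-Ab1 UMIs of microglial cells likewise moved from 69.5%, 72.3% and 71.7% in sham + WT to 52.6%, 49.7% and 52.3% in sham + Lrg1-/-. It was 68.7% and 73.5% in MCAO/R + WT and 60.8%, 53.4% and 62.6% in MCAO/R + Lrg1-/-. Dendritic cells of all libraries held 36.7% to 53.5%. In oligodendrocytes the Cd74 to H2-Aa ratio was 6.24 to 6.88 in sham + WT, 2.84 to 3.22 in sham + Lrg1-/-, 4.41 and 12.8 in MCAO/R + WT and 2.30 to 3.42 in MCAO/R + Lrg1-/-. In border-associated macrophages it was 3.67 to 4.30, 2.61 to 2.69, 8.1 and 9.81 (from 50 and 26 H2-Aa UMIs), and 2.96 to 3.73 in the same order of groups.

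Border-associated macrophages, the resident macrophages of the meninges, choroid plexus and perivascular spaces, showed group differences in nearly all of these genes. All of the chain genes and Cd74 were lower after MCAO/R than after sham surgery in both genotypes and higher in Lrg1-/- than in WT mice under both operations. H2-Aa, for example, averaged 239 ± 95.7 CPM (SD, n = 3) in sham + WT, 1418 ± 657.8 (n = 3) in sham + Lrg1-/-, 16.3 ± 0.0417 (n = 2) in MCAO/R + WT and 326.2 ± 190.6 (n = 3) in MCAO/R + Lrg1-/-. The cell type was represented by 37 to 281 cells per library, and its own markers were present in all groups (6608 to 7630 CPM in sham + WT, 6171 to 7966 in sham + Lrg1-/-, 5996 to 8615 in MCAO/R + WT and 6712 to 10790 in MCAO/R + Lrg1-/-).

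H2-Aa stood at 203.9, 166 and 347.3 CPM in the sham + WT mice, 1093, 985.4 and 2175 in sham + Lrg1-/-, 16.3 and 16.3 in MCAO/R + WT, and 545.9, 206.2 and 226.4 in MCAO/R + Lrg1-/-. H2-Ab1 stood at 148.1, 160.9 and 334.6 CPM, then 1091, 859.5 and 2000, then 11.8 and 5.63 (36 and 9 UMIs), and 561.5, 208.9 and 180.4 in the same order of groups. The MCAO/R + WT mice were below all other mice and the sham + Lrg1-/- mice above all others for both genes, whereas sham + WT and MCAO/R + Lrg1-/- overlapped. H2-Eb1 kept the same ranking of groups, from 17.6 and 25 CPM in MCAO/R + WT to 980.4 to 1927 in sham + Lrg1-/-. Cd74 was 748.2, 714.3 and 1411 CPM in sham + WT, 2938, 2608 and 5670 in sham + Lrg1-/-, 132.2 and 159.4 in MCAO/R + WT, and 1618, 767.9 and 754.5 in MCAO/R + Lrg1-/-.

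**Figure D2:**
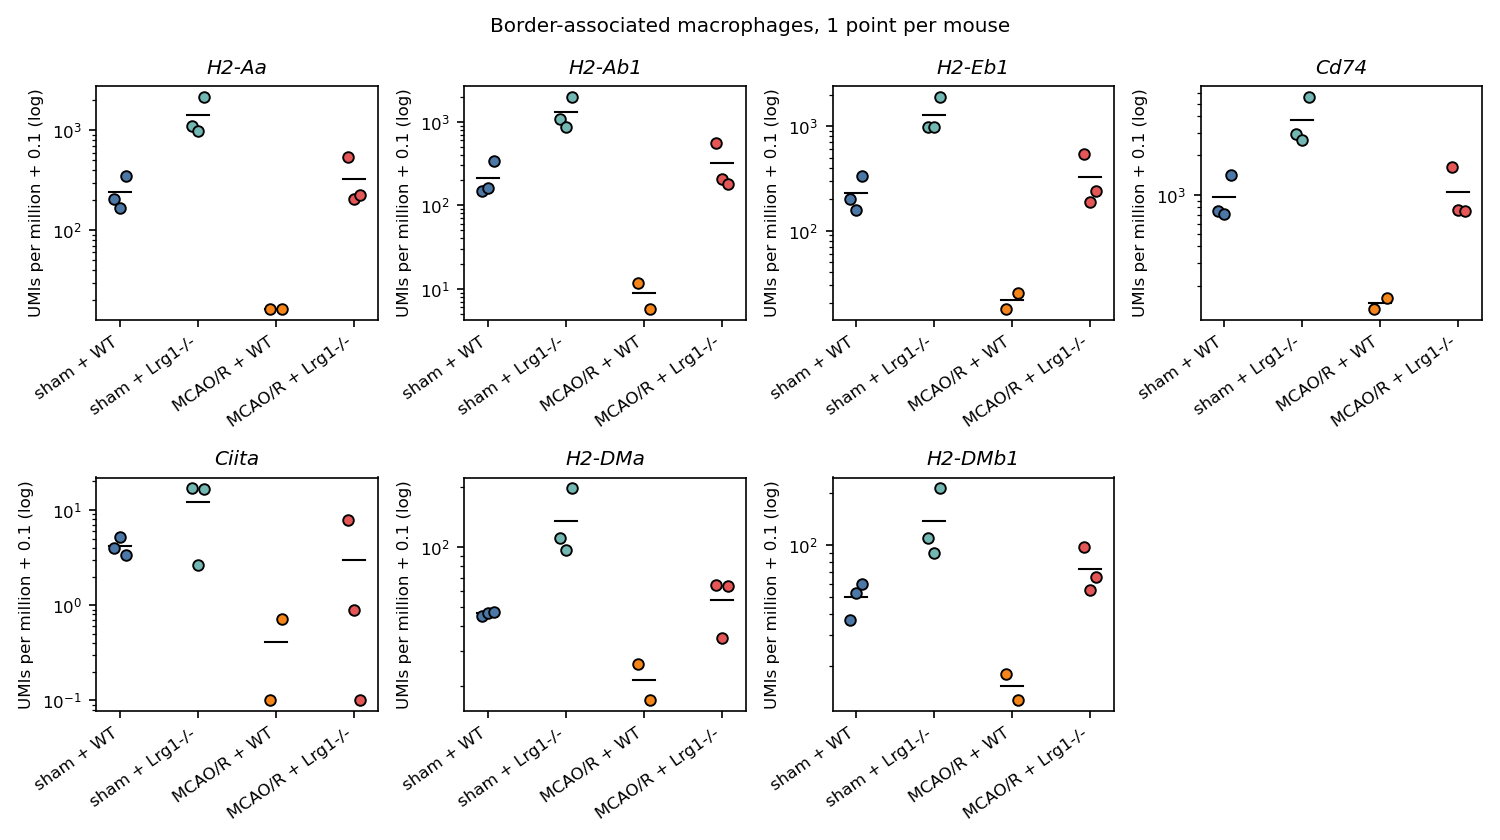
Level of each class II gene in border-associated macrophages, in CPM plus 0.1 on a log axis, with 1 point per mouse and a line at the group mean. For the chain genes and Cd74, the sham + Lrg1-/- mice sit above and the MCAO/R + WT mice below all others, and sham + WT overlaps MCAO/R + Lrg1-/-.

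Differences between groups were tested with the edgeR quasi-likelihood test over all genes of a cell type, with p adjusted by Benjamini-Hochberg. A call needed an adjusted p under 0.05 together with a natural log fold change beyond 0.25 in either direction. Against sham + WT, 6 of the 7 genes were called in the border-associated macrophages of the MCAO/R + WT group, all lower, where 10.1% of all genes tested were called. The log2 fold change was -3.90 ± 0.51 (SE) for H2-Aa (adjusted p = 0.000206), -4.54 ± 0.62 for H2-Ab1 (0.000284), -3.49 ± 0.50 for H2-Eb1 (0.000386) and -2.75 ± 0.42 for Cd74 (0.00061). H2-DMb1 fell by 1.68 ± 0.36 (adjusted p = 0.00656) and H2-DMa by a smaller margin (log2 fold change -1.10 ± 0.31, adjusted p = 0.0359). In the knockout, MCAO/R against sham gave 5 calls of 7, all lower, where 11.1% of genes were called, with log2 fold changes of -2.13 ± 0.37 for H2-Aa (adjusted p = 0.00264), -2.06 ± 0.42 for H2-Ab1 and -1.83 ± 0.34 for Cd74. H2-DMa was called (-1.32 ± 0.29, adjusted p = 0.0089), and H2-DMb1 was not (-0.88 ± 0.30, adjusted p = 0.0754). The median over the 7 genes was -3.49 in WT and -2.01 in Lrg1-/- mice, with the median over all genes tested at 0.0017 and 0.0028.

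Between the injured groups, 6 of 7 genes were called in border-associated macrophages, all higher in MCAO/R + Lrg1-/- than in MCAO/R + WT, where 21.2% of genes were called. The log2 fold change was 4.24 ± 0.52 for H2-Aa (adjusted p = 9.84e-05), 5.004 ± 0.63 for H2-Ab1 (0.000125), 3.88 ± 0.51 for H2-Eb1 (0.000171), 2.80 ± 0.42 for Cd74 (0.000443), 2.12 ± 0.37 for H2-DMb1 (0.00128) and 1.17 ± 0.33 for H2-DMa (0.0202). Between the sham groups, 6 of 7 were again called higher in the knockout, where 4.02% of genes were called, with 2.47 ± 0.37 for H2-Aa (adjusted p = 0.00155), 2.52 ± 0.42 for H2-Ab1 (0.00335), 1.88 ± 0.34 for Cd74 (0.00558), 1.40 ± 0.27 for H2-DMa (0.00761) and 1.31 ± 0.29 for H2-DMb1 (0.0182). The genotype difference was thus present without the injury. These comparisons share groups with each other and are not independent. Whether the genotypes differed in their response to the injury was tested as an interaction, where 0.0897% of genes were called and 0 of the 7 were called by edgeR. At an unadjusted p below 0.05 there were 3, and DESeq2 called 0. The interaction was 1.77 ± 0.60 on the log2 scale for H2-Aa (adjusted p = 0.208) and 2.48 ± 0.72 for H2-Ab1 (adjusted p = 0.139).

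The calls of H2-Aa, H2-Ab1, H2-Eb1 and Cd74 in these 4 comparisons were kept when any single library was left out. Leaving out an MCAO/R + WT library leaves 1 mouse in that group, which is then assumed to vary like the mice of the other groups. Of the 7 calls of the H2-DM genes in them, 3 were kept as well, H2-DMb1 in MCAO/R + WT against sham + WT and between the injured groups, and H2-DMa between the sham groups. The other 4 were not. H2-DMa in MCAO/R + WT against sham + WT lost its call without any 1 of these 5 libraries (adjusted p = 0.057 and 0.185 without MCAO/R + WT replicates 1 and 2, and 0.0702, 0.0934 and 0.0998 without sham + WT replicates 1, 2 and 3). The H2-DMa difference between the injured groups was lost without MCAO/R + WT replicate 2 (0.154) or MCAO/R + Lrg1-/- replicates 1 (0.0597) or 5 (0.0602), and the fall of H2-DMa in the knockout without MCAO/R + Lrg1-/- replicate 2 (0.0644). H2-DMb1 between the sham groups was lost without sham + Lrg1-/- replicate 5 (0.062) or sham + WT replicates 1 (0.0812) or 2 (0.0635). With cells thinned to 1000 UMIs, H2-DMa lost its call in all 4 comparisons (0.0596 to 0.0957).

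No Ciita difference was called in these macrophages, where its counts were low. The 3 sham + WT libraries held 8, 10 and 7 Ciita UMIs, sham + Lrg1-/- 20, 2 and 5, MCAO/R + WT 0 and 1, and MCAO/R + Lrg1-/- 4, 2 and 0. Neither operation against the other (adjusted p = 0.0737 in WT and 0.0871 in Lrg1-/-) nor genotype (0.252 after MCAO/R and 0.297 after sham) gave a call. Over all cell types in which it could be tested, Ciita was called in 0 of 17 edgeR tests in 4 cell types, with 4 at an unadjusted p below 0.05 and 0 called by DESeq2.

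Class II RNA was concentrated in a small share of the border-associated macrophages. Between 44.8% and 95.6% of them held no chain UMI, and cells with at least 50 chain UMIs per 10000, a limit chosen after the values were seen, made up 1.78%, 2.75% and 6.64% in the sham + WT mice, 16.0%, 14.4% and 21.6% in sham + Lrg1-/-, 1 of 241 and 0 of 160 cells in MCAO/R + WT, and 9.80%, 4.48% and 3.51% in MCAO/R + Lrg1-/-. The 0 of 160 cells allow a share of up to 2.28% (exact 95% interval, counting error only). These high cells held 83.9% to 93.2% of the chain UMIs of this cell type in sham + WT, 89.5% to 97.3% in sham + Lrg1-/- and 63.4% to 76.2% in MCAO/R + Lrg1-/-. In MCAO/R + WT they held 10.7% and 0%. Outside that group, most chain RNA of these macrophages was thus counted in few cells. In an exact two-sided permutation test of that share, every comparison gave the smallest p its sample numbers allow, 0.1 for 3 against 3 mice and 0.2 for 3 against 2, so none can pass a threshold of 0.05.

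**Figure D3:**
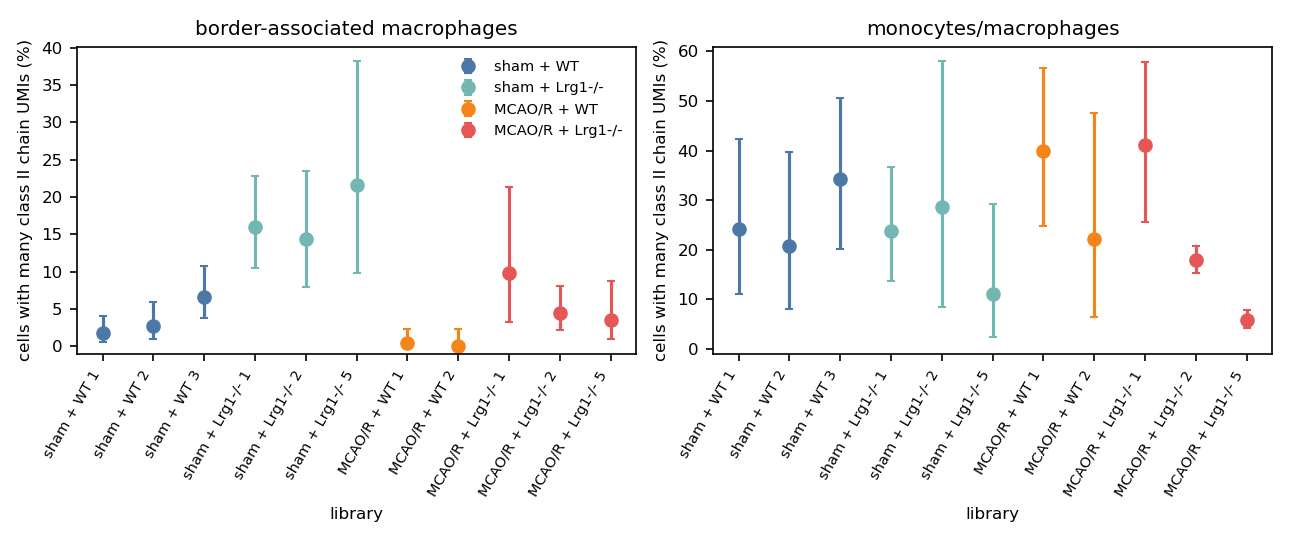
Share of cells with at least 50 class II chain UMIs per 10000 UMIs, in percent, for border-associated macrophages (left) and monocytes and monocyte-derived macrophages (right), with 1 point per library and exact 95% intervals of counting error. Among border-associated macrophages, the 3 sham + Lrg1-/- libraries hold 14.4% to 21.6% and the MCAO/R + WT libraries 0.415% and 0%; among monocytes the groups overlap.

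The 91 high cells were set beside the 1700 cells below the limit for the genes that define the cell type. The summed border-associated macrophage markers were at 2660 CPM in the high cells against 8074 in the others, with Mrc1, the mannose receptor, at 748.8 against 2438, Pf4 at 874.7 against 2226 and Lyve1, a hyaluronan receptor, at 50.9 against 405.3. The list of 12 dendritic cell markers summed to 211.7 against 452.9 CPM, a sum that followed Clec10a (41.5 against 288.5), which 54.8% of border-associated macrophages held. The rarer markers rest on few UMIs in the high cells, and no direction is read from them. Zbtb46 was at 4.02 against 19.3 CPM, Cd209a at 0 against 16.2, Clec9a at 0 against 0.187, and Flt3, Xcr1 and Ccr7 were at 1.34 to 2.68 CPM in the high cells against 0 to 0.749. The microglial markers (1713 against 1171) and the monocyte markers (192.9 against 114 CPM) were higher in the high cells as well. The B cell markers were at 124.6 against 65.2. The choroid plexus markers were at 9706 against 3582. The cells were pooled over libraries, and the high cells came mostly from knockout libraries, 24, 13 and 8 from sham + Lrg1-/- and 5, 10 and 4 from MCAO/R + Lrg1-/-, with 5, 6 and 15 from sham + WT and 1 and 0 from MCAO/R + WT. All border-associated macrophages of the knockout libraries held more choroid plexus RNA (5575 to 33170 CPM, against 96.3 to 1529 in WT), so in these pooled values the high cells cannot be told apart from the mix of libraries. They describe cells chosen by their chain UMIs, and no test was made.

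Other RNA moved with genotype in the same cells. In border-associated macrophages, the summed choroid plexus markers (all 8 detected in both knockout groups and in sham + WT, 7 in MCAO/R + WT) were at 403 to 1529 CPM in sham + WT, 9676 to 33170 in sham + Lrg1-/-, 96.3 to 292 in MCAO/R + WT and 5575 to 14220 in MCAO/R + Lrg1-/-, the same ranking of groups as the chain genes. Red blood cell markers were at 32.1 to 58.2, 4152 to 28620, 28.8 to 38.8 and 23500 to 34670 CPM. The dendritic cell markers did not follow that ranking (399 to 429, 422 to 540, 429 to 578 and 346 to 371 CPM). That list includes genes common in the macrophages themselves, such as Clec10a (54.8% of them) and Wdfy4 (42.6%). The sum therefore cannot show how many dendritic cells were among them. In sham + Lrg1-/-, Flt3, Clec9a and Itgae were at 0, markers that 0.558%, 0.168% and 0.335% of all border-associated macrophages held. Markers this rare can be absent from the 277 cells of that group either way, and nothing is read from their absence. Chain and Cd74 calls were kept when cells with 1% or more hemoglobin UMIs were left out. When cells with any dendritic or B cell marker UMI were left out, they were kept in MCAO/R + WT against sham + WT and between the injured groups, and the contrasts with sham + Lrg1-/- could not be tested, since fewer than 2 of its libraries kept 20 cells. Without the marker-carrying cells, H2-DMb1 lost its calls in MCAO/R + WT against sham + WT (adjusted p = 0.93) and between the injured groups (0.143), and H2-DMa lost its own in the same comparisons (0.488 and 0.0706). The part of the choroid plexus RNA and of where in the brain the macrophages came from in the genotype difference was not tested. For depth, only the UMIs per cell were made equal, by the thinning given above, and H2-DMa then lost its calls between the genotypes. The part of the total depth of the libraries was not tested.

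Microglial cells, the resident macrophages of the brain parenchyma, held calls in both directions between the genotypes. Cd74 was lower in Lrg1-/- than in WT microglial cells, the opposite of its direction in border-associated macrophages. H2-DMb1 and H2-DMa fell after MCAO/R in WT mice, and H2-DMb1 rose in Lrg1-/- mice. Of all microglial genes tested for surgery, 22.2% were called in WT mice and 36.7% in Lrg1-/- mice. The called share of the class II genes was near the former and below the latter. These surgery calls are therefore described for single genes and not read as a result about the class II genes as a set. H2-Aa and H2-Eb1 were higher in Lrg1-/- than in WT microglial cells, at levels that overlapped those of oligodendrocytes. The cell type was represented by 417 to 4726 cells per library, and the groups drew most of their microglial cells from different clusters. These were, for sham + WT from the clusters i6 (40.5%) and i8 (29.9%), sham + Lrg1-/- from i7 (44.2%) and i2 (37.6%), MCAO/R + WT from i1 (68.8%) and MCAO/R + Lrg1-/- from i4 (47.5%) and i5 (35.1%).

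Cd74 stood at 435.2, 451 and 379.9 CPM in the microglial cells of the sham + WT mice, 174.7, 134.6 and 132.4 in sham + Lrg1-/-, 285.1 and 246.1 in MCAO/R + WT, and 136.9, 218.3 and 100.1 in MCAO/R + Lrg1-/-. All 6 knockout mice were below all 5 wild-type mice. H2-DMa was 151.9, 133.6 and 137.5 CPM in sham + WT, 106.8, 106.2 and 109.5 in sham + Lrg1-/-, 64.9 and 59.6 in MCAO/R + WT, and 73.9, 75.0 and 121.1 in MCAO/R + Lrg1-/-. H2-DMb1 was 62.5, 62.2 and 62.2 CPM, then 49.5, 52.5 and 50.8, then 45.2 and 40.6, and 80.9, 72.4 and 73.4 in the same order of groups. The H2-DMb1 values of the 4 groups did not overlap, with MCAO/R + WT lowest and MCAO/R + Lrg1-/- highest.

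**Figure D4:**
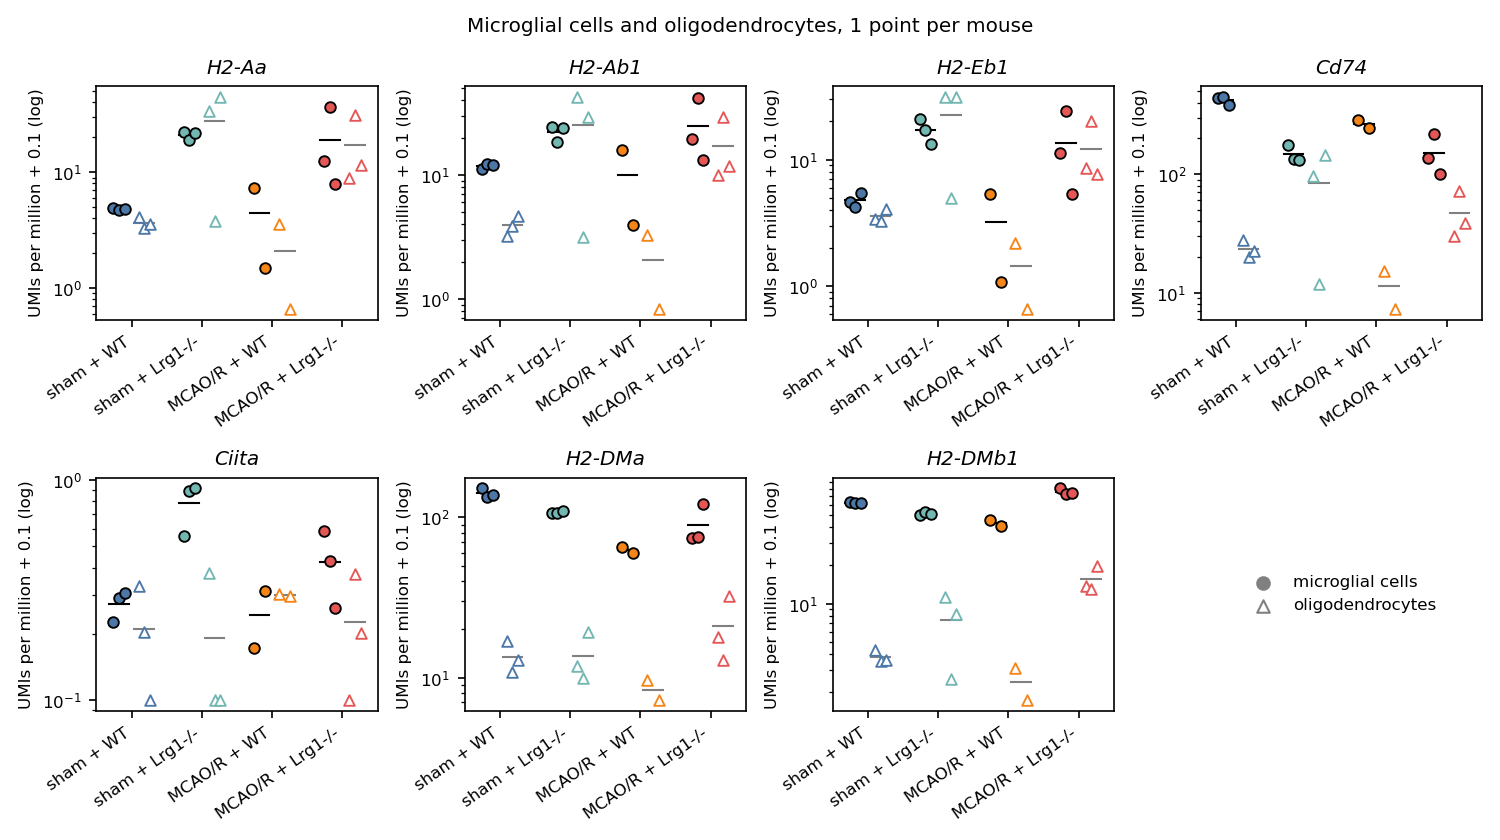
Level of each class II gene in microglial cells (filled circles) and, for comparison, in oligodendrocytes (open triangles), in CPM plus 0.1 on a log axis, with 1 point per mouse and a line at each group mean. H2-Aa and H2-Eb1 overlap between both cell types in both knockout groups, whereas Cd74, H2-DMa and H2-DMb1 are higher in microglial cells, except for Cd74 in sham + Lrg1-/- replicate 5 (132.4 against 144.4).

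In WT mice, MCAO/R against sham gave 2 calls of 7 in microglial cells, both lower, where 22.2% of all genes tested were called. These were H2-DMa (log2 fold change -1.17 ± 0.19, adjusted p = 0.000789) and H2-DMb1 (-0.53 ± 0.11, adjusted p = 0.00454), and Cd74 was not called (-0.66, adjusted p = 0.107). In Lrg1-/- mice, 1 of 7 was called, where 36.7% of genes were called, with H2-DMb1 higher after MCAO/R (0.71 ± 0.10, adjusted p = 0.000206) and H2-DMa at -0.11 (adjusted p = 0.659). The interaction of genotype and surgery was called for 2 of 7, where 9.04% of genes were called, H2-DMb1 (1.24 ± 0.15, adjusted p = 0.00191) and H2-DMa (1.06 ± 0.25, adjusted p = 0.0238). For both H2-DM genes the change after MCAO/R was thus more positive in the knockout. The H2-DMa interaction lost its call without any 1 of 7 libraries, with adjusted p from 0.0518 to 0.0729. These were MCAO/R + WT replicate 2 and every sham library of both genotypes.

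Between the sham groups, 5 of 7 genes were called in microglial cells, where 23.5% of genes were called. Cd74 was lower in the knockout (log2 fold change -1.71 ± 0.25, adjusted p = 0.000433), as were H2-DMa (-0.59 ± 0.17, adjusted p = 0.0239) and H2-DMb1 (-0.48 ± 0.10, adjusted p = 0.00522). H2-Aa (1.95 ± 0.59, adjusted p = 0.0286) and H2-Eb1 (1.70 ± 0.57, adjusted p = 0.0462) were higher. Between the injured groups, 4 of 7 were called, where 26.5% of genes were called: Cd74 lower in the knockout (-0.85 ± 0.27, adjusted p = 0.0322), and H2-DMb1 (0.75 ± 0.11, 0.000617), H2-Aa (2.10 ± 0.65, 0.0298) and H2-Eb1 (2.08 ± 0.64, 0.0299) higher. The Cd74 call between the sham groups was kept in every alternative. The others were less firm, and fewer of the 7 genes were called between the sham groups in cells under 1% hemoglobin UMIs. The sham calls of H2-Aa and H2-Eb1 were lost without any 1 of the 6 sham libraries, with adjusted p from 0.0622 to 0.0911 for H2-Aa and from 0.065 to 0.16 for H2-Eb1, and the H2-Eb1 call also without MCAO/R + Lrg1-/- replicate 1 (0.0556). The sham call of H2-DMa was lost without sham + Lrg1-/- replicates 1 (0.0749) or 2 (0.0859) or sham + WT replicates 1 (0.0835) or 3 (0.0549). After MCAO/R, H2-Aa and H2-Eb1 lost their calls without MCAO/R + Lrg1-/- replicate 2 (0.165 and 0.159) or MCAO/R + WT replicate 2 (0.16 and 0.162), and Cd74 without MCAO/R + Lrg1-/- replicates 1 (0.102) or 5 (0.0803) or MCAO/R + WT replicates 1 (0.114) or 2 (0.0559).

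The microglial H2-Aa levels were compared with those of oligodendrocytes. They were 4.83, 4.64 and 4.67 CPM in sham + WT, 22.0, 18.7 and 21.7 in sham + Lrg1-/-, 7.25 and 1.38 in MCAO/R + WT, and 12.4, 36.1 and 7.87 in MCAO/R + Lrg1-/-. Oligodendrocytes held 4.01, 3.21 and 3.45 CPM, then 33.8, 3.69 and 44.8, then 3.46 and 0.561, and 8.85, 31.0 and 11.4 in the same libraries. Microglial cells were higher in 8 of 11 libraries, among them every wild-type library, and lower only in knockout libraries. The ratio was widest in sham + Lrg1-/- replicate 2 (18.7 CPM from 94 UMIs against 3.69 from 6). The difference over the 11 libraries of both genotypes was not detectable by the exact test above. After thinning every cell to 1000 UMIs, 0.445% to 0.632% of microglial cells and 0.326% to 0.648% of oligodendrocytes of sham + WT carried an H2-Aa UMI, against 1.90% to 3.597% and 1.22% to 5.13% in sham + Lrg1-/-. Without thinning, the shares were 3.23% to 4.23% and 2.78% to 5.05% in sham + WT, and 4.84% to 6.95% and 3.66% to 10.3% in sham + Lrg1-/-. The median depth was 8753 to 10350 UMIs in microglial cells and 9801 to 15560 in oligodendrocytes of sham + WT, and 3133 to 3997 and 5584 to 7184 in sham + Lrg1-/-. The ranges of the shares thus overlapped between the cell types within both sham groups, and what part of the H2-Aa and H2-Eb1 differences in microglial cells is background was not tested. The thinned oligodendrocyte shares rest on 9, 4 and 5 cells in sham + WT and 8, 2 and 6 in sham + Lrg1-/-. Their counting error is wide, and the overlap cannot show that the shares are equal. Cd74 had a thinned share of 26.3% to 32.4% of microglial cells against 1.55% to 4.17% of oligodendrocytes in sham + WT. In sham + Lrg1-/- it was 8.74% to 11.0% against 1.83% to 11.1%, so the ranges met there.

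RNA of other cell types and depth also moved with the groups in microglial cells. The choroid plexus markers summed to 295 to 530 CPM in sham + WT, 3669 to 4906 in sham + Lrg1-/-, 118 to 260 in MCAO/R + WT and 2296 to 4250 in MCAO/R + Lrg1-/- microglial cells. The dendritic cell markers (all 12 detected in every group) summed to 407 to 416, 339 to 372, 231 to 264 and 197 to 246 CPM, and the B cell markers to 157.5 to 164.3, 123.5 to 155.8, 26.3 to 30.0 and 61.1 to 86.2. The part of the choroid plexus RNA in the results was not tested. Cells with dendritic or B cell marker UMIs were left out in the alternatives given further below. With cells thinned to 1000 UMIs, the H2-DMb1 calls in both surgery contrasts were lost, at log2 fold changes of -0.43 (adjusted p = 0.159) in WT and 0.53 (0.0611) in Lrg1-/-. The H2-DMa and H2-DMb1 calls between the sham groups were lost at -0.31 (0.245) and -0.29 (0.287), and both interactions at 0.95 (0.0972 and 0.0953). The directions were those of the unthinned cells, and the thinned share of cells with an H2-DMb1 UMI was 5.68% to 6.14% in sham + WT, 4.25% and 4.80% in MCAO/R + WT, 4.08% to 6.32% in sham + Lrg1-/- and 6.64% to 8.27% in MCAO/R + Lrg1-/-. Thinning added calls for H2-Ab1 between the injured groups (0.0397) and between the sham groups (0.0375) and for H2-DMa between the injured groups (0.033).

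Without cells carrying any dendritic or B cell marker UMI, the microglial calls fell from 2 to 0 for surgery in WT mice, from 1 to 0 in Lrg1-/- mice, from 4 to 1 between the injured groups (H2-Eb1), from 5 to 1 between the sham groups (Cd74) and from 2 to 0 for the interaction. This leaves out most microglial cells, 304 to 4143 per library, since 56.0% of them held Fscn1, 53.4% Wdfy4 and 39.7% Ighm. H2-DMa then had -1.03 (adjusted p = 0.051) and H2-DMb1 -0.33 (0.581) in WT mice, and H2-DMb1 0.68 (0.121) in Lrg1-/- mice. When only cells with a rarer marker were left out, a setting chosen after seeing the data, all 14 of these calls were kept.

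Within cluster i5, which both injured groups shared and whose leading genes were Lilr4b, Ifi207, Lilrb4a and Msr1, H2-DMb1 was 41.0 and 48.8 CPM in the MCAO/R + WT mice and 65.7, 67.6 and 62.1 in MCAO/R + Lrg1-/-. Cd74 was 265.5 and 291.2 against 104.5, 232.4 and 113.3 CPM there, the same directions as in all microglial cells. No test was made within the cluster.

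Monocytes and monocyte-derived macrophages, the cells that enter from blood, held high and variable class II levels, and no group difference was called. In libraries with at least 20 of these cells, their own markers summed to 1449 to 3307 CPM in sham + WT, 2165 to 3559 in sham + Lrg1-/-, 3614 in MCAO/R + WT and 2324 to 6176 in MCAO/R + Lrg1-/-. Microglial markers summed to 1665 to 2130, 1138 to 1542, 729.2 and 741.3 to 1727 CPM. Dendritic cell markers summed to 272.9 to 481.3, 166.1 to 619.7, 252.9 and 126.5 to 274.8 CPM. Border-associated macrophage markers summed to 268.2 to 542.6, 91.94 to 279.6, 800.3 and 257.8 to 2221 CPM. Choroid plexus markers summed to 236.7 to 379.5, 9463 to 18140, 235.2 and 2699 to 6243 CPM, above the cells' own markers in sham + Lrg1-/-. Red blood cell markers summed to 11.27 to 36.42, 4224 to 7572, 27.67 and 3009 to 17370 CPM. The part of this RNA in the class II levels was not tested. H2-Aa stood at 2625, 1179 and 2899 CPM in sham + WT, 2391, 3219 and 874.9 in sham + Lrg1-/-, 1611 and 1150 in MCAO/R + WT, and 1562, 866.5 and 296.6 in MCAO/R + Lrg1-/-. The values overlapped between all groups. The libraries held 14 to 798 such cells, and only those with at least 20 entered a test, which left 1 MCAO/R + WT library, so the contrasts with that group were not tested. Between MCAO/R and sham in Lrg1-/- mice, 0 of 7 were called by edgeR, where 11.3% of all genes tested were called (2 at an unadjusted p below 0.05, 0 by DESeq2). The log2 fold changes were -0.85 ± 0.55 for H2-Aa (adjusted p = 0.343), -1.34 ± 0.54 for H2-Eb1 (0.131), -1.04 ± 0.49 for Cd74 (0.196) and -2.06 ± 0.76 for Ciita (0.101). Between the sham groups, 0 of 7 were called by edgeR, where 1.46% of genes were called (0 at an unadjusted p below 0.05, 0 by DESeq2), with H2-Aa at -0.47 ± 0.56 (adjusted p = 0.704). The share of monocytes with at least 50 chain UMIs per 10000 was 24.2%, 20.7% and 34.2% in sham + WT, 23.7%, 28.6% and 11.1% in sham + Lrg1-/-, 40% and 22.2% in MCAO/R + WT, and 41.0%, 17.9% and 5.82% in MCAO/R + Lrg1-/-. The lowest share came from MCAO/R + Lrg1-/- replicate 5, where 42 of 722 cells were above the limit.

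Dendritic cells and B cells had too few libraries with 20 cells for a test of any contrast, at 3 to 107 and 5 to 66 cells per library. In dendritic cells, H2-Aa was 6023, 6604 and 6592 CPM in sham + WT, 7498, 6889 and 11070 in sham + Lrg1-/-, 6265 and 5224 in MCAO/R + WT, and 7805, 6001 and 4845 in MCAO/R + Lrg1-/-. The sham + Lrg1-/- mice lay above the sham + WT mice, and the injured groups overlapped each other. In B cells H2-Aa was 2548, 2933 and 2336 CPM, then 1930, 2247 and 3181, then 1801 and 1761, and 1912, 1628 and 1445 in the same order of groups. All 5 injured mice lay below all 6 sham mice, and the genotypes overlapped under both operations. These values rest on as few as 3 cells per library and have no test.

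The other cell types held class II RNA at low levels, and these levels moved with genotype in most of them. Over all 11 cell types that could be tested between the injured groups, 37 of 68 tests of the 7 genes were called (36 higher and 1 lower in MCAO/R + Lrg1-/-), among them the 6 in border-associated macrophages and 4 in microglial cells given above, where 18% of all gene by cell type tests were called. The median log2 fold change of the 68 was 2.53, against 0.02 over all genes, and 67 of the 68 were positive. The 68 tests share the same mice and libraries and are not independent, so this count is a description. After sham surgery, 29 of 75 genotype tests in 12 cell types were called (26 higher and 3 lower in the knockout), 6 and 5 of them in the same cell types, where 10.9% of all tests were called, with a median of 1.68 against -0.0046 over all genes. Surgery gave fewer calls. In WT mice, 8 of 67 tests were called, all lower after MCAO/R, where 8.95% of all tests were called. In Lrg1-/- mice, 6 of 81 were called, 1 higher and 5 lower, where 10.6% were called. The interaction was called in 2 of 63 tests, where 1.6% were called. In this filtered test, the calls for surgery were all in border-associated macrophages and microglial cells, and those for the interaction in microglial cells. With no filter on low counts there were more calls, as listed below.

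**Figure D5:**
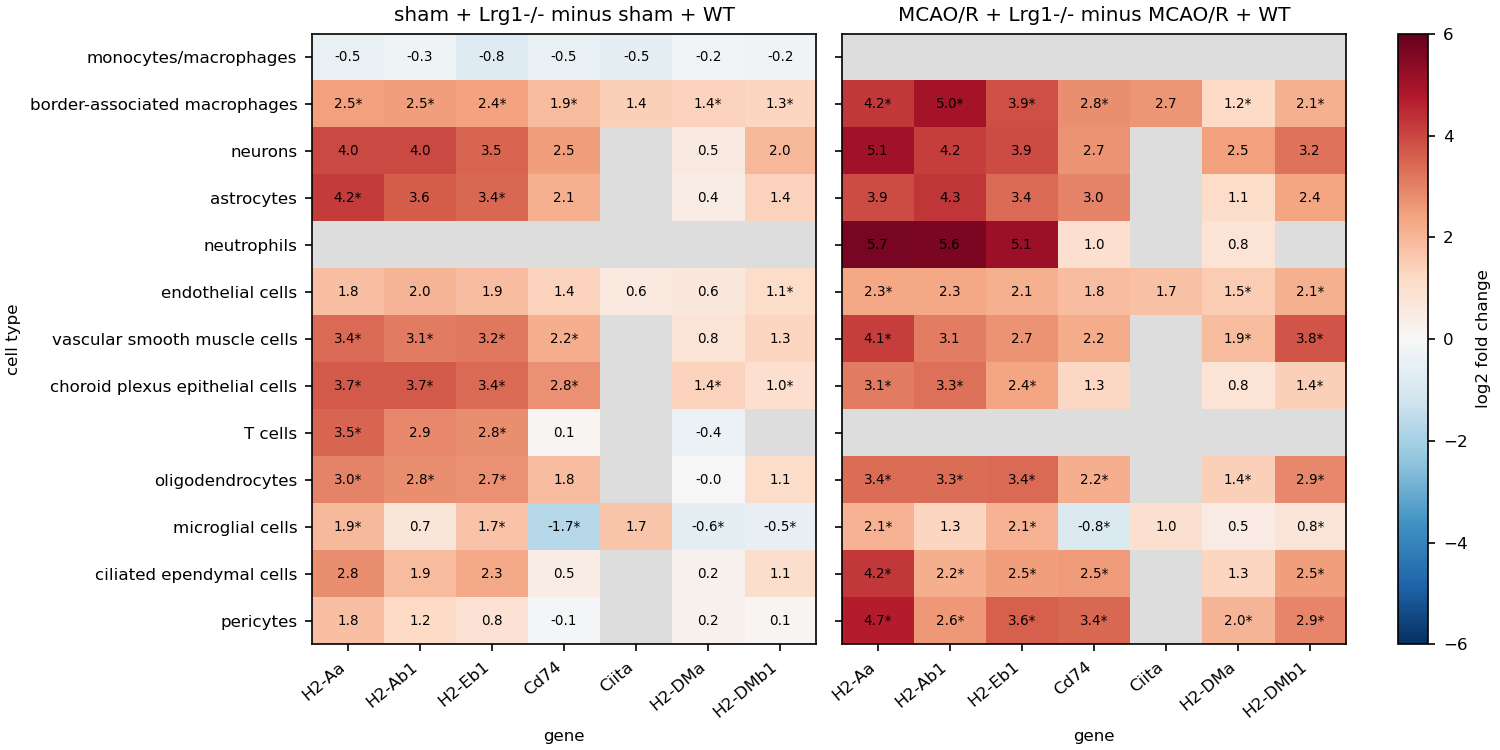
Log2 fold change of each class II gene (columns) in each cell type (rows) between knockout and wild-type mice after sham surgery (left) and after MCAO/R (right); an asterisk marks a call and gray a gene or cell type not tested. Nearly all values after MCAO/R are positive (67 of 68), and the microglial Cd74 cells are negative, at -1.71 and -0.85.

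Pericytes and oligodendrocytes were among the cell types with most calls, 6 of 6 genes each between the injured groups. In pericytes, H2-Aa was at 3.66 and 0.353 CPM (8 and 1 UMIs) in MCAO/R + WT, and at 5.64, 79.2 and 0 CPM (1, 71 and 0 UMIs) in MCAO/R + Lrg1-/-. The groups overlapped, and nearly all knockout UMIs came from replicate 2. The fitted difference was 4.71 ± 0.87 on the log2 scale (adjusted p = 0.00109). Cd74 was at 12.8 and 8.82 CPM against 33.8, 175.1 and 18.4 CPM, with no overlap (3.44 ± 0.56, adjusted p = 0.000482). In oligodendrocytes, H2-Aa differed by 3.36 ± 0.83 (adjusted p = 0.00943) and H2-DMb1 by 2.87 ± 0.40 (0.00036). Choroid plexus epithelial cells, which make cerebrospinal fluid, held 2.23, 3.62 and 4.78 CPM of H2-Aa in sham + WT, 28.2, 35.6 and 63.4 in sham + Lrg1-/-, 2.42 and 5.29 in MCAO/R + WT (3 UMIs each), and 26.5, 30.0 and 19.7 in MCAO/R + Lrg1-/-. All 6 knockout mice were above all 5 wild-type mice, and all 6 genes tested were called between the sham groups (H2-Aa 3.69 ± 0.42, adjusted p = 0.000441). In endothelial cells H2-Aa was 8.79, 14.9 and 7.47 CPM in sham + WT, 22.9, 31.6 and 52.9 in sham + Lrg1-/-, 10.3 and 0.831 in MCAO/R + WT, and 45.0, 33.5 and 9.99 in MCAO/R + Lrg1-/-, and the difference between the injured groups was at the limit of a call (2.32 ± 0.79, adjusted p = 0.0489). The same library, MCAO/R + WT replicate 2, was lowest for H2-Aa among microglial cells, oligodendrocytes and endothelial cells, and without it 15 tests between the injured groups were called in place of 37. That fit holds 1 MCAO/R + WT mouse and takes the spread from the other groups. The sham count was 13, 16 and 17 without sham + WT replicates 2, 1 and 3.

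Marker RNA of other cell types moved with genotype in these cell types as well. In oligodendrocytes, the choroid plexus markers summed to 272 to 471 CPM in sham + WT, 3188 to 5181 in sham + Lrg1-/-, 91.9 to 196 in MCAO/R + WT and 3290 to 5325 in MCAO/R + Lrg1-/-. The unnamed cells held 0.964% to 5.74% of chain UMIs in the sham + WT libraries, 13.6% to 32.1% in sham + Lrg1-/-, 1.29% and 1.52% in MCAO/R + WT, and 3.59% to 31.9% in MCAO/R + Lrg1-/-. Red blood cell markers in oligodendrocytes were at 357.5 to 379.5, 7655 to 17480, 258.4 to 294.2 and 8792 to 16890 CPM. Leaving out cells with 1% or more hemoglobin UMIs, which kept 83997 of the 99302 named cells, gave fewer summed calls between the sham groups, as listed below. The cause of that drop and the part of the choroid plexus RNA in the class II differences were not tested.

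Other genes of the class II pathway were followed through a list of 29, of which 28 were measured, covering paralogues, transcription factors of the promoter boxes, endosomal proteases, regulators of surface level and interferon gamma signaling. In border-associated macrophages, 23 of the list were tested. After MCAO/R in WT mice 3 of 23 were called, where 10.1% of all genes were called, and 2 of them rose, Ctsl, an endosomal protease, by 1.23 on the log2 scale and Ifi30, the thiol reductase of endosomes, by 0.93. In Lrg1-/- mice, where 11.1% of all genes were called, 5 rose, among them Ctsl (1.39), Ifi30 (1.01) and the proteases Lgmn (0.86) and Ctsd (0.78), and 3 fell, Jak1 (-0.97), Nfya (-0.91) and Irf8 (-0.57). Between the injured groups, where 21.2% of all genes were called, 2 of 23 were higher in the knockout, Ctsd (0.84) and Lgmn (0.78). Another 3 of 23 were lower, Jak1 (-1.97), Irf1 (-1.04) and March1 (-0.94), which encodes a ubiquitin ligase that lowers surface class II. Between the sham groups, where 4.02% were called, 1 was called, Jak1 (-1.004), and in the interaction 0 of 23 were called by edgeR, with 6 at an unadjusted p below 0.05 and 4 called by DESeq2. The median over the list was -0.09, -0.08, -0.09 and -0.20 in these 4 comparisons, near 0, where the 7 genes had medians of -3.49, -2.01, 2.80 and 1.88. The called share of the list was near that of all genes in WT mice after MCAO/R and in both genotype comparisons. Those calls are therefore not read as a result about the list.

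In microglial cells, 27 of the list were tested. After MCAO/R in WT mice 4 rose and 6 fell, where 22.2% of all genes were called, with the proteases Ctsl (1.48) and Ctsb (1.05) and Ifi30 (1.26) higher and H2-Ob (-1.56), H2-DMb2 (-1.29), H2-Oa (-1.10), Rfx5 (-0.87) and Irf8 (-0.78) lower. H2-Oa and H2-Ob encode the chains of H2-O, which restrains H2-DM. In Lrg1-/- mice 6 rose and 8 fell, where 36.7% were called, with Ctsb (2.38), Ifi30 (2.15) and Ctsl (1.60) again higher and H2-Ob (-1.52) lower. Between the injured groups, where 26.5% were called, 4 were higher in the knockout, among them Ctsb (1.07) and Jak2 (0.77), and 7 lower, among them March1 (-1.37), Irf1 (-1.18), Jak1 (-1.14) and Ifngr1 (-1.12). After sham surgery, where 23.5% were called, 1 was higher and 10 lower in the knockout, among the latter Socs1 (-1.33), Rfx5 (-1.04), March1 (-0.80) and Irf1 (-0.70). In monocytes of Lrg1-/- mice, 5 of 23 rose and 3 fell after MCAO/R, where 11.3% of all genes were called. The 5 that rose were all proteases or Ifi30 (Ctsl 2.38, Ctsd 1.94, Lgmn 1.65, Ifi30 1.22, Ctsb 1.20), and Irf1 (-1.37) and March1 (-1.004) were among those that fell. In monocytes of the sham groups, 0 of 23 were called by edgeR between the genotypes, with 5 at an unadjusted p below 0.05 and 1 called by DESeq2.

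Across the 20 cell types, the genes whose pooled level was most like the mean of H2-Aa, H2-Ab1 and H2-Eb1 (Pearson correlation of log2(CPM + 1), n = 20 cell types that share libraries, given as a description) were Cd74 (0.968), Rnase6 (0.945), Gm20513 (0.929), Ciita (0.924), H2-DMb1 (0.915), Ms4a4c (0.910), H2-DMa (0.896), Clec2g (0.892), Gm15987 (0.888) and Hepacam2 (0.886). All the other 4 of the 7 genes were thus among the first 10. Gm20513 overlaps H2-Eb1 on the opposite strand. Of the 10, Ms4a4c was highest in monocytes and monocyte-derived macrophages, where it was also one of the naming markers, and the others were highest in dendritic cells.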

How the data were processed

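Single-cell RNA libraries of 11 mice were analyzed. Per the labels and file headers, the authors deposited raw UMI counts per gene and cell, made with Cell Ranger (7.0.1 in the matrix headers); the submitters' processing notes also name STAR and mm10. Nothing was normalized before deposit. The counts are not corrected for free RNA, and the empty droplets that such a correction needs were not used here.

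Cells with more than 500 genes, more than 1000 UMIs and less than 25% mitochondrial UMIs were kept. Doublets were removed with Scrublet in scanpy 1.11.5 (Python 3.11.15), with a fixed rate of 6% in the 5 libraries where the caller marked almost none. These were sham + WT replicate 1, sham + Lrg1-/- replicates 2 and 5, and MCAO/R + Lrg1-/- replicates 1 and 5, so doublet removal moved in part with genotype. Cells were clustered on 2000 variable genes, without the 7 genes and their paralogues, and clusters were named from marker lists. A cluster was named only where its type scored highest by markers and no second type came close. Summed marker levels of another type could still be higher in the named cells. The study's own cell names were not used here.

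UMIs were summed per library and cell type. Libraries with at least 20 cells entered the edgeR 4.0.16 quasi-likelihood test (R 4.3.3; TMM scaling, filterByExpr, group as the only term, all groups in 1 fit), with Benjamini-Hochberg adjustment over all genes of the cell type. A contrast needed at least 2 libraries in each group. Only where a library was left out could a group of 2 fall to 1, whose spread then came from the other groups. Fold changes are edgeR log2 values, and levels are plain CPM. Nothing in the labels gives a batch. The deposited barcodes had a lowest count of 500 UMIs in every wild-type library and in MCAO/R + Lrg1-/- replicates 2 and 5. That floor was 590, 645 and 551 in sham + Lrg1-/- replicates 1, 2 and 5, which held 15500, 9000 and 5650 barcodes. It was 770 in MCAO/R + Lrg1-/- replicate 1, with 8500 barcodes. The choice of barcodes thus moved in part with genotype, and its part in the results was not tested. Levels between cell types were compared by exact permutation tests. The test was checked on simulated counts. Depth sets the precision: dendritic and B cells held too few cells for a test, and intervals of shares are exact (Clopper-Pearson, 95%) and cover counting error only. Alternatives were DESeq2 1.42.0, no filter on low counts, other cell limits, thinned cells, a replicate block and leaving out each library. The 7 genes, the pathway list and the markers were chosen with earlier results of these data known. Genes named are the 7, up to 8 called pathway genes per comparison by absolute fold change, and the 10 genes most alike across cell types.

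Promoter sequences were taken from RefSeq. Some genes of the lists are not reported here.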

Additional observations from a re-analysis of the deposited data

Results flagged for a closer look

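In microglial cells, the effect of MCAO/R differed between the genotypes for 2 of the 7 genes of the report and 5 of the 27 other pathway genes tested, by the interaction term of the edgeR quasi-likelihood test with Benjamini-Hochberg adjustment over all genes, of which 9.04% were called. Among the 7 genes of the report, H2-DMb1 had an interaction of 1.24 ± 0.15 (SE) on the log2 scale (adjusted p = 0.00191) and H2-DMa of 1.06 ± 0.25 (0.0238). Both calls were lost with thinned cells (adjusted p = 0.0953 and 0.0972) and without cells carrying a dendritic or B cell marker UMI (0.708 and 0.796), which leaves out most microglial cells. Both were kept when only cells with a rarer marker, a setting chosen after seeing the data, were left out (0.00183 and 0.0193). The H2-DMa call was also lost with the replicate block (0.0526) and without any 1 of 7 libraries (0.0518 to 0.0729). Of the other pathway genes, Ctsb had 1.33 ± 0.37 (0.0395), Irf8 0.92 ± 0.23 (0.0274), Ctsd 0.89 ± 0.24 (0.0343), Ifi30 0.88 ± 0.22 (0.0284) and Lgmn 0.77 ± 0.19 (0.0291). All were more positive in the knockout. The groups drew their microglial cells from different clusters, and the part of that in these values was not tested.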

How the results depend on the processing

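Counts of called genes are given as the main value and then the alternatives. In microglial cells, MCAO/R against sham in WT gave 2 calls, 1 with cells thinned to 1000 UMIs and 0 without cells carrying a dendritic or B cell marker UMI; in Lrg1-/- mice 1 call, and 0 under either. The injured groups gave 4, with 1 without marker-carrying cells. The sham groups gave 5, with 3 in cells under 1% hemoglobin UMIs and 1 without marker-carrying cells. The interaction gave 2, and 0 with thinned or with marker-free cells. Leaving out 1 library gave 2 to 3, 1 to 1, 1 to 4, 2 to 5 and 1 to 3 calls in these comparisons.

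Summed over cell types, surgery in WT gave 8 calls, 27 with no filter on low counts; surgery in Lrg1-/- 6, 37 with no filter and 2 without marker-carrying cells; the injured groups 37, 61 with no filter and 23 with thinned cells; the sham groups 29, 46 with no filter, 19 thinned, 15 under 1% hemoglobin and 8 without marker-carrying cells; and the interaction 2, 12 with no filter, 0 thinned and 0 without marker-carrying cells. Leaving out 1 library gave 7 to 10, 6 to 9, 15 to 51, 13 to 34 and 1 to 3. Without marker-carrying cells, most of the border-associated macrophages and microglial cells are gone and fewer tests could be made, 6 in place of 7 in microglial cells and, summed, 47, 53, 48, 46 and 40 in the 5 comparisons in place of 67, 81, 68, 75 and 63. The causes of the other changes were not tested.

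The libraries carry replicate numbers, but in the 13 same-numbered pairs of each of border-associated macrophages and microglial cells the correlation of deviations was -0.272 to 0.0496, with 0 pairs above 0.1. No pairing was thus seen, but this check cannot show whether same-numbered libraries shared a day or a run. With the replicate block, microglial calls were 2 between the injured groups, 2 between the sham groups and 1 for the interaction, and the summed sham count was 12.

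Of single genes in border-associated macrophages, microglial cells and monocytes, 84 results were recomputed: 1669 values kept direction and side of the threshold, 82 lost a call, 29 gained one, and none of the called results changed direction. Leaving out only cells with a rarer dendritic or B cell marker UMI, an alternative chosen after seeing the data, gave 47 summed calls between the injured groups and 27 between the sham groups.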
